A study of Homo sapiens with 13 samples.

Results

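The regions described here lie at divergent coding promoters, where a minus-strand and a plus-strand protein-coding gene start back to back, and each carries both a PTBP1 and a RUNX1 peak in MOLM-13 cells. They were chosen by merging peaks of the PTBP1 and RUNX1 lists that overlapped by at least 1 base. Regions with peaks of both lists were then kept where they came within 1000 bases of both transcription start sites (TSSs) of a head-to-head pair, with the minus-strand TSS to the left and at most 1000 bases between the TSSs. The TSS was the gene 5-prime end in GENCODE version 44. This left 294 of 4550 shared regions, out of 12367 merged regions in all. The 294 regions lay at 311 gene pairs, and 16 regions touched more than 1 pair. As the members were selected on the presence of a peak in both lists, that presence is not a result.

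The cells were MOLM-13, a line established from human acute myeloid leukemia, and carried no label for a treatment, genotype or time point. The 13 libraries comprised 2 for each of PTBP1 and RUNX1 by CUT&Tag, the same by CUT&RUN, 2 for H3K27me3 and 2 for control IgG by CUT&RUN, and 1 for IgG by CUT&Tag. A single peak list for each of the 2 targets, taken as CUT&Tag, gave all values below, so no spread between replicates could be computed and p-values describe these lists only. In CUT&Tag an antibody directs a transposase to the target protein and tagged fragments accumulate there. Fold enrichment is the fragment pileup at a peak's summit over the local background, as deposited. At the member summits the pileup was 13 to 390 fragments for PTBP1 (median 39) and 8 to 240 for RUNX1 (median 23). Fold enrichments were compared between the lists only as percentiles within each list.

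Divergent promoters are compact elements that serve a pair of genes from one nucleosome-depleted stretch. They are typically rich in CpG dinucleotides, often lack a TATA box, and frequently drive housekeeping genes of metabolism, RNA processing and DNA repair. RUNX1 is a hematopoietic transcription factor that recognises DNA through its Runt domain, and PTBP1 is an RNA-binding protein known for repressing exons at pyrimidine-rich tracts.

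The RUNX1 summit with 50 bases on either side is shown for the 4 regions with the highest mean percentile of fold enrichment over both lists, as examples of the DNA under strong peaks of both targets. All stretches are from hg38, plus strand, 5′ to 3′, and capitals mark every match to 10 searched motifs on either strand, where matches may overlap. The RUNX motif was read as TGTGGT or as TGCGGT, the site of ETS factors as CCGGAA, that of NRF1 as GCATGCG, that of SP and KLF factors (SP/KLF) as GGGCGG and that of NFY as CCAAT. The YY1 motif was read as ATGGCGG, the half-site of CREB as TGACGT, the E-box as CACGTG, the TATA box as TATAAA and the AP-1 motif as TGACTCA or as TGAGTCA. AGPAT1/RNF5 is at chr6:32178088-32178188, NDUFA11/VMAC at chr19:5904389-5904489, GTPBP2/MAD2L1BP at chr6:43630020-43630120 and MBOAT7/TSEN34 at chr19:54190186-54190286. LPXN/ZFP91, at chr11:58577755-58577855, was added after its values were seen, as the region of highest mean percentile with a RUNX match in this window.
AGPAT1/RNF5: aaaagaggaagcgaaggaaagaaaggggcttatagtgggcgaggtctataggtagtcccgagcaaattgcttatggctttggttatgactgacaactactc
NDUFA11/VMAC: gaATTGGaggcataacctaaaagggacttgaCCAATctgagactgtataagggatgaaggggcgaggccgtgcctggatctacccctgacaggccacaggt
GTPBP2/MAD2L1BP: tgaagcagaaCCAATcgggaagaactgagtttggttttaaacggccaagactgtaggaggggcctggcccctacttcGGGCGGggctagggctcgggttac
MBOAT7/TSEN34: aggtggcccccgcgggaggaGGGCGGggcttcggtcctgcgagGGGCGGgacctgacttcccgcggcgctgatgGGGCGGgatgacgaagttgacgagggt
LPXN/ZFP91: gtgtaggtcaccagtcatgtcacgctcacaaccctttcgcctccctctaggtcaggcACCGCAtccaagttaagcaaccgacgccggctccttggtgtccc

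The 4 top-ranked stretches held 0 RUNX matches. NDUFA11/VMAC had 2 NFY matches, GTPBP2/MAD2L1BP 1 NFY and 1 SP/KLF match, and MBOAT7/TSEN34 3 SP/KLF matches. The AGPAT1/RNF5 stretch held none of the motifs.

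The whole stretch between the TSSs is shown for 4 pairs that were listed as familiar head-to-head genes and had a shared region, because this is the sequence the gene pair has in common. PPAT/PAICS is at chr4:56435616-56435740, SARS2/MRPS12 at chr19:38930764-38930943, XPO5/POLH at chr6:43576039-43576184 and H2BC11/H2AC11 at chr6:27132796-27133042, again on the plus strand of hg38.
PPAT/PAICS: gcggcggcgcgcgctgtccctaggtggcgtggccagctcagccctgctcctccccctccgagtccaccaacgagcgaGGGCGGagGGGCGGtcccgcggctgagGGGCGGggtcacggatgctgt
SARS2/MRPS12: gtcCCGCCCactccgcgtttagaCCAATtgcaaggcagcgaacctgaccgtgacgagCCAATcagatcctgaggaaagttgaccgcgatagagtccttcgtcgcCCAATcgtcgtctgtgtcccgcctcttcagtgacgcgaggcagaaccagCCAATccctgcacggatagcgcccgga
XPO5/POLH: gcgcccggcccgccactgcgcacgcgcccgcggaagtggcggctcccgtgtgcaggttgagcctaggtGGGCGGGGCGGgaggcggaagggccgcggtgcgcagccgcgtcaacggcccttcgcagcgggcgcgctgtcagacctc
H2BC11/H2AC11: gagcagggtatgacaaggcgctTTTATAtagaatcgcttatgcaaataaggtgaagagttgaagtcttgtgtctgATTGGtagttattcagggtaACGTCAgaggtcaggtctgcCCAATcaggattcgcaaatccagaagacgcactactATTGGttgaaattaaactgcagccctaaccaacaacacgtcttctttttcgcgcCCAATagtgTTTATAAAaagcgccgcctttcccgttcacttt

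The printed stretches are not always the sequence under the summits. Both summits lay outside the stretch at PPAT/PAICS and SARS2/MRPS12, as did the RUNX1 summit at H2BC11/H2AC11. The stretches differed in base composition. PPAT/PAICS and XPO5/POLH had GC contents of 76.0% and 78.1% with 3 and 2 SP/KLF matches. SARS2/MRPS12 had 4 NFY matches and 1 SP/KLF match at a GC content of 60%. The histone pair H2BC11/H2AC11 had a GC content of 43.7%, with 4 NFY matches, 1 CREB match and 3 TATA matches, of which some overlap. In a different window, within 150 bases of the PTBP1 summit, 9 of the 294 regions (3.06%) had a TATA match.

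Members were ordered by the mean of their percentiles in both lists, and the first was AGPAT1/RNF5 on chromosome 6 (mean percentile 99.5), with a PTBP1 fold enrichment of 176 and a RUNX1 fold enrichment of 106. AGPAT1 makes phosphatidic acid for lipid synthesis and RNF5 is a membrane-bound ubiquitin ligase. Both summits fell on the same base, 112.5 bases from the midpoint of the TSSs on the side of AGPAT1. NDUFA11/VMAC on chromosome 19 followed, with 218 for PTBP1 and 91.0 for RUNX1 and its summits 8 bases apart. NDUFA11 is a subunit of respiratory complex I. The highest PTBP1 value of all members was 227, at MBOAT7/TSEN34, where RUNX1 had 76.7. MBOAT7 remodels phosphatidylinositol and TSEN34 is a subunit of the tRNA splicing endonuclease.

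At GTPBP2/MAD2L1BP the fold enrichment was 82.0 for PTBP1 and 118 for RUNX1, and the summits lay 584 bases apart. APBA3/MRPL54, where MRPL54 is a mitochondrial ribosomal protein, had 98.2 and 85.0. IFT25/LRRC42 had 95.3 and 79.7 with both summits on the same base, 119 bases from the midpoint. SKA2/PRR11 and CEP170/SDCCAG8 include genes of the mitotic spindle and the centrosome. Their PTBP1 values were 70.3 and 52.9, and their RUNX1 values were 91.0 and 104. All 8 of these regions were at or above the 96.4th percentile in the PTBP1 list and the 97.97th in the RUNX1 list.

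Across all 294 regions the PTBP1 fold enrichment ranged from 5.77 to 227, with a median of 21.5 and quartiles of 14.5 and 36.0. The RUNX1 fold enrichment ranged from 6.19 to 181, with a median of 17.3 and quartiles of 12.8 and 24.8. Spearman's rho between the lists was 0.67 over the 294 members, against 0.53 over 2565 shared regions at other protein-coding TSSs, as a description of regions that share their libraries. At or above the 90th percentile of their lists were 93 PTBP1 peaks (31.6%) and 29 RUNX1 peaks (9.86%), and 25 regions reached it in both. At other coding promoters the shares were 23.1% for PTBP1 and 13.6% for RUNX1. Regions had a median width of 1035.5 bases, and 286 of 294 consisted of 1 peak of each list. Members were found on every chromosome except Y, which holds 0 head-to-head coding pairs. Chromosomes 19, 1 and 11 had 34, 28 and 27 members and hold 74, 78 and 71 of the head-to-head pairs.

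The first comparison asked whether peaks at divergent coding promoters were stronger than at shared regions near other protein-coding TSSs. Of these 2565 other regions, 2146 had no head-to-head gene of any type. The rest lay at a coding gene that was head-to-head with a gene that is not protein-coding. Taken over all members, PTBP1 peaks were stronger. Above the pooled median fold enrichment of 19.2 were 56.5% of members (166 of 294, 95% Wilson interval 50.7 to 62.0). Among the others it was 47.0% (1206 of 2565, 45.1 to 49.0). The odds ratio was 1.46 (two-sided Fisher's exact test, p = 0.00249, Benjamini-Hochberg adjusted p = 0.0149 over 6 comparisons). The medians were 21.5 and 18.6. Members with TSSs up to 100 and over 100 to 200 bases apart had medians of 18.6 and 19.2, near that of the others. The wider spacing classes had 22.4, 29.1 and 38.9. Against the 2146 regions without any head-to-head gene, the PTBP1 difference was 9.67 percentage points (Fisher's exact test, adjusted p = 0.0136). For RUNX1 the medians were both 17.3, and 48.6% of members against 47.4% of the others exceeded the pooled median (Fisher's exact test, adjusted p = 0.854). The PTBP1 difference no longer passed Fisher's exact test among pairs at most 500 bases apart (6.39 percentage points, adjusted p = 0.314), among regions with summits at most 200 bases apart (6.05 points, 0.264) or among regions 500 to 1500 bases wide (8.73 points, 0.101).

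**Figure D1:**
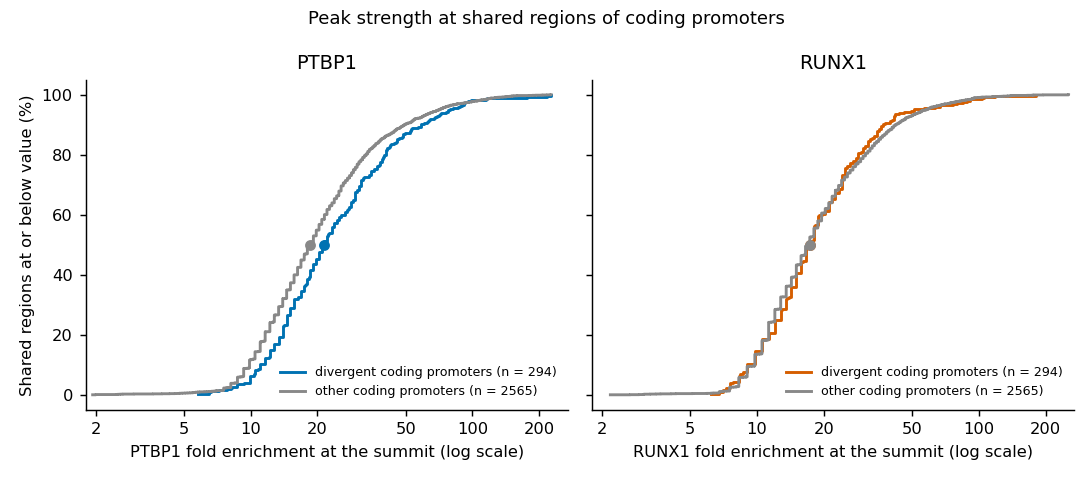
Share of shared regions (%, vertical axis) at or below each fold enrichment (horizontal axis, log scale) for PTBP1 (left) and RUNX1 (right), at 294 divergent (coloured) and 2565 other coding promoters (grey); dots mark the medians. The PTBP1 curve of divergent promoters lies to the right of the grey curve over most of its range, with medians of 21.5 and 18.6, while both RUNX1 medians are 17.3.

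Ranking each peak within its own list set the targets side by side. The PTBP1 percentile was above the RUNX1 percentile at 246 of 294 members (83.7%, 95% Wilson interval 79.0 to 87.5) and at 1810 of 2565 other coding promoters (70.6%, 68.8 to 72.3). This comparison, added after the values were seen, gave an odds ratio of 2.14 by a two-sided Fisher's exact test (p = 9.78e-07). The median excess of the PTBP1 percentile was 16.2 points at members and 12.01 points at the others. The difference in share passed the test in each of 9 alternatives, at 10.1 to 13.1 percentage points. These included regions 500 to 1500 bases wide and pairs at most 500 bases apart. The highest, from regions within 1000 bases of either TSS, only repeated the main value. Median region widths were 1035.5 bases at members and 1051 at the others.

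Single regions departed in both directions. C19orf73/PPFIA3 had a PTBP1 fold enrichment of 45.9, at percentile 95.4, and a RUNX1 fold enrichment of 7.52, at percentile 3.33. PPFIA3 is a liprin of the presynaptic scaffold. SEZ6L2/ASPHD1 followed with 22.1 and 6.77 (percentiles 81.9 and 1.44). RNF166/CTU2, where CTU2 modifies wobble uridines in tRNA, had 25 and 8.27 (percentiles 85.2 and 7.34). The RUNX1 summits of these 3 regions stood on 8 to 10 fragments, against a member median of 23.

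In the other direction, SLC7A6OS/PRMT7, where PRMT7 is an arginine methyltransferase, had a PTBP1 fold enrichment of 9.88 at percentile 30.8 and a RUNX1 fold enrichment of 28.6 at percentile 82.7. JMJD6/METTL23 had 8.22 and 19.1 (percentiles 14.04 and 66.5), and TRMT1L/SWT1 had 6.49 and 13.7 (percentiles 2.51 and 45.8). At these last 2 pairs the local background was raised in both lists, to more than 1.5 times its usual level, which lowers a fold enrichment for the same pileup. Their PTBP1 pileups were 56 and 44 fragments, above the member median of 39. A raised background was present at 18 of 294 members in each list. Without regions of raised background in either list, the excess in share was 12.6 points (Fisher's exact test, p = 4.38e-06).

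**Figure D2:**
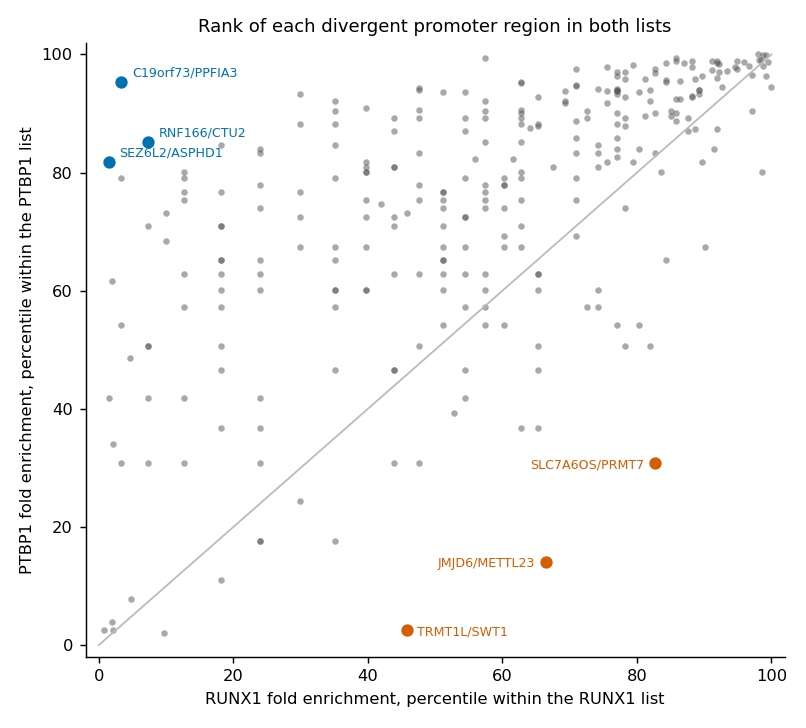
Percentile of each of the 294 regions within the RUNX1 list (horizontal axis) and the PTBP1 list (vertical axis); the line marks equal percentiles, and coloured points name the 3 regions with the largest excess of PTBP1 (blue) and of RUNX1 (orange). Of the regions, 246 (83.7%) had a higher PTBP1 than RUNX1 percentile, against 70.6% of 2565 other coding promoters, which are not drawn.

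The next question was where the summits lay relative to the gene pair. The median distance from the midpoint of the TSSs was 121.5 bases for PTBP1 and 129 bases for RUNX1. The PTBP1 summit was nearer the midpoint in 147 regions and the RUNX1 summit in 126, with 21 ties (two-sided exact sign test, p = 0.226). With the starts of canonical transcripts in place of gene 5-prime ends, which gave 366 members, the PTBP1 summit was nearer in 56.3% of untied regions and the difference passed the test (exact sign test, p = 0.0224). The PTBP1 summit lay between the gene 5-prime ends in 123 regions (41.8%) and the RUNX1 summit in 113 (38.4%), which did not differ by the test (exact sign test, p = 0.245). Both summits lay outside in 146 regions, and in 138 of these they were on the side of the same gene.

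Where the gene was taken to start mattered for this description. Canonical transcripts of a member pair started a median of 488.5 bases apart, against 176.5 bases between gene 5-prime ends. Between the canonical starts lay 220 PTBP1 summits (74.8%) and 204 RUNX1 summits (69.4%). Canonical 5-prime UTRs held 39 PTBP1 and 47 RUNX1 summits, introns held 21 and 29, and coding exons held 13 and 14.

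**Figure D3:**
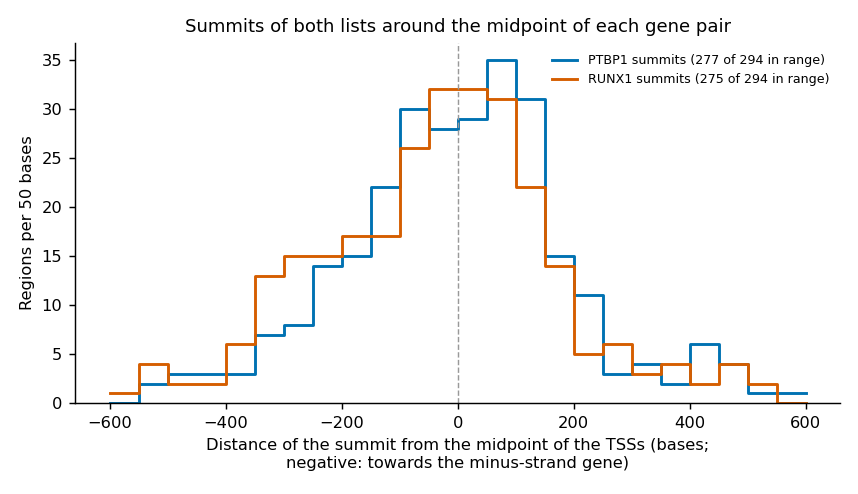
Number of regions per 50 bases (vertical axis) by distance of the PTBP1 (blue) and RUNX1 (orange) summit from the midpoint of the TSSs (horizontal axis, bases; negative towards the minus-strand gene), for the 277 PTBP1 and 275 RUNX1 summits within 600 bases. Within 50 bases of the midpoint lie 58 PTBP1 and 64 RUNX1 summits. Median absolute distances are 121.5 and 129 bases over all 294 regions.

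The summits of both lists lay a median of 76.5 bases apart at members and 79 at other coding promoters. They were within 100 bases of each other in 58.8% of members and 57.3% of the others (Fisher's exact test, adjusted p = 0.854). The PTBP1 peak covered both TSS bases in 239 regions (81.3%) and the RUNX1 peak in 191 (64.97%). In 69 regions this held for the PTBP1 peak only and in 21 for the RUNX1 peak only (two-sided exact sign test, p = 3.88e-07, added after the values were seen). PTBP1 peaks were also the wider ones, with a median of 943 bases against 756, and the part of peak width in this difference was not tested.

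The distance between the TSSs then allowed pairs with and without peaks to be compared. Of 887 head-to-head coding pairs, 311 (35.1%) had a shared region, 151 (17.02%) a PTBP1 peak only, 46 (5.19%) a RUNX1 peak only and 379 (42.7%) neither. Only regions within 1000 bases of both TSSs of a pair were counted. Among single TSSs, 17.5% of all 20033 protein-coding genes and 15.9% of the 18323 in no head-to-head pair had a shared region within 1000 bases, against 35.3% of 1710 paired genes. A pair offers 2 TSSs to a region, so these shares are not on equal terms. All 887 pairs met the limit of 1000 bases, and their spacing comes from the annotation and not from the peaks. Some genes belong to several pairs and some regions touch several pairs, so the pairs are not fully independent. Pairs with a shared region were spaced more widely than pairs without a peak, with medians of 178 and 103 bases. At most 300 bases separated 72.7% of the former (226 of 311, 95% Wilson interval 67.5 to 77.3) and 87.3% of the latter (331 of 379, 83.6 to 90.3), with an odds ratio of 0.386 (two-sided Fisher's exact test, p = 1.62e-06). The difference was -14.7 percentage points, -24.99 points with a boundary of 200 bases and -31.7 points with canonical transcript starts. Wider spacing was not confined to shared regions. Median spacing was 145 bases where PTBP1 alone had a peak and 116 bases where RUNX1 alone did. The spacing of these single-target pairs was not tested. A pair without a peak has none within 1000 bases of both TSSs at the authors' threshold, and can have a peak near a single TSS. Weaker signal cannot be seen in these lists.

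By spacing, a shared region was present at 25.7% of 342 pairs up to 100 bases apart and at 30.8% of 253 pairs over 100 and up to 200 bases apart. The share was 49.2% of 122 pairs over 200 and up to 300 bases apart, 53.2% of 94 pairs up to 500 bases apart and 46.1% of 76 pairs up to 1000 bases apart. The largest step between neighbouring classes lay at 200 bases, and the 3 wider classes had overlapping intervals (40.5 to 57.9, 43.2 to 63.0 and 35.3 to 57.2). The median PTBP1 fold enrichment was higher in each wider class, which was not tested. From the closest to the widest class the median PTBP1 fold enrichment of members was 18.6, 19.2, 22.4, 29.1 and 38.9. The median RUNX1 fold enrichment was 16.5, 15.8, 17.3, 19.9 and 25.6.

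Over the 294 members, Spearman's rho with spacing was 0.30 for PTBP1 and 0.18 for RUNX1 fold enrichment, given as a description. Region width also followed spacing (rho 0.31) and followed fold enrichment more closely (0.61 for PTBP1 and 0.51 for RUNX1), and its part in the relation was not tested. GC content round the midpoint had a median of 64.5% at pairs with a shared region and 63.8% at pairs without a peak. The observed over expected CpG ratio had medians of 0.883 and 0.863.

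**Figure D4:**
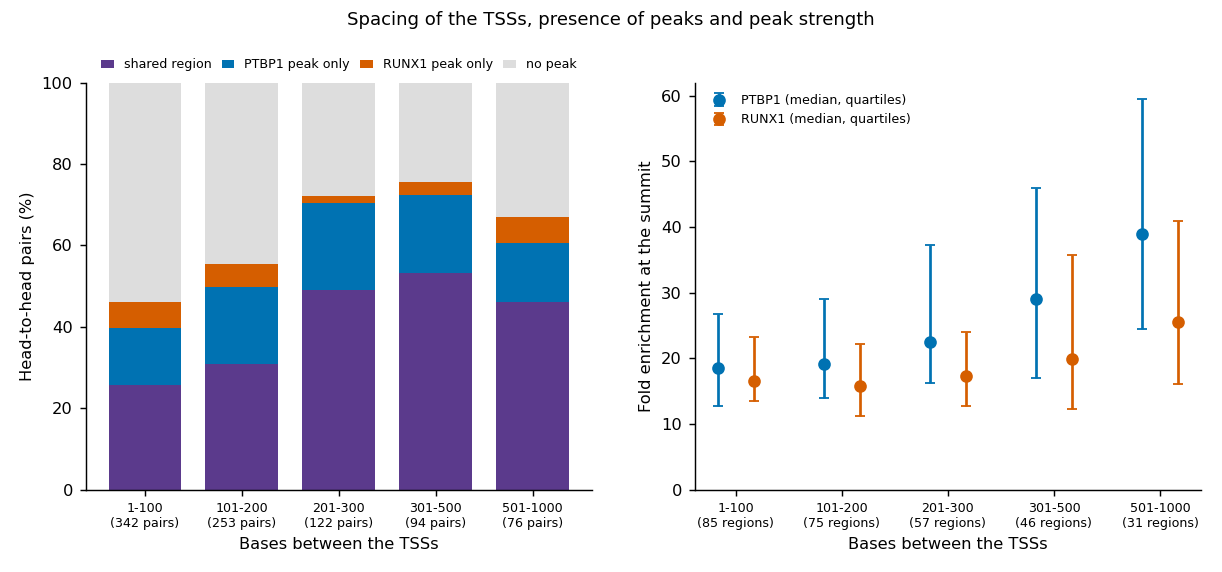
Left, head-to-head pairs (%) by bases between the TSSs, with a shared region, a PTBP1 peak only, a RUNX1 peak only or no peak. Peaks count where their region is within 1000 bases of both TSSs. Right, median fold enrichment of the 294 regions in the same classes, with quartiles as bars. The share with a shared region is 25.7% in the closest class and 53.2% in the class that ends at 500 bases, and the PTBP1 median is 18.6 in the closest and 38.9 in the widest class.

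The sequence at the summits was compared with that of other coding promoters. A RUNX match was present within 50 bases of the RUNX1 summit in 25 of 294 members (8.50%, 95% Wilson interval 5.83 to 12.3) and in 292 of 2565 other coding promoters (11.4%, 10.2 to 12.7). The difference did not pass the test (Fisher's exact test, adjusted p = 0.427), and 14.5% of all 4550 shared regions had such a match. In a single flank window centred 500 bases to the left of the summit, 21 members had a match. By a two-sided exact sign test, 22 regions had a match at the summit only and 18 at the flank only (p = 0.636). This flank can still lie within the region, so it is a weak control. Around PTBP1 summits the share was 6.46% against 7.95% (adjusted p = 0.844 by Fisher's exact test). A run of at least 12 pyrimidines on either strand was found at 15.3% of member PTBP1 summits and 15.4% of the others (adjusted p = 1, Fisher's exact test). Only 11 members had a RUNX match at both summits and 33 at either.

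Within 150 bases of the PTBP1 summit, SP/KLF was the most frequent of the 10 motifs, at 77.6% of members, 78.2% of other coding promoters and 66.6% of all shared regions. NFY, bound by a trimeric factor common at CCAAT-box promoters, was present at 40.8%, 37.5% and 34.9%. ETS was present at 29.3%, 26.1% and 21.8%, and RUNX at 17.7%, 21.01% and 25.2%. CREB was at 14.3%, 10.3% and 9.19%, YY1 at 11.2%, 9.08% and 7.30%, and NRF1 at 8.50%, 5.77% and 5.21%. E-box was at 9.86%, 10.3% and 9.60%, TATA at 3.06%, 2.81% and 4.07%, and AP-1 at 1.70%, 2.50% and 4.90%. Of the 10 differences between members and other coding promoters, 0 passed Benjamini-Hochberg adjustment of Fisher's exact tests, and 1, for CREB, had an unadjusted p under 0.05 (p = 0.0453, adjusted 0.35).

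Among the members, the 120 regions with an NFY match had a median PTBP1 fold enrichment of 27.3, against 19.8 without one, and a median RUNX1 fold enrichment of 18.9 against 16.3. The PTBP1 median was also higher with a match for AP-1 (38.9 against 20.9, on 5 regions with a match), NRF1 (24.4 against 20.9) and ETS (22.4 against 20.9). It was lower with a match for TATA (17.7 against 21.5), YY1 (18.02 against 22.1), CREB (18.6 against 21.5), E-box (20.3 against 21.5), SP/KLF (20.9 against 22.4) and RUNX (21.2 against 21.5). The 52 regions with a RUNX match had a RUNX1 median of 15.8, against 17.5 without it. For the other motifs the RUNX1 median was higher with NRF1 (21.1 against 16.5) and SP/KLF (17.3 against 16.5). With and without ETS it was 17.3. It was lower with YY1 (14.3 against 18.05), CREB (14.4 against 18.05) and AP-1 (15.04 against 17.3). The same held for E-box and TATA (15.8 against 17.3 each). These values describe the regions and were not tested.

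**Figure D5:**
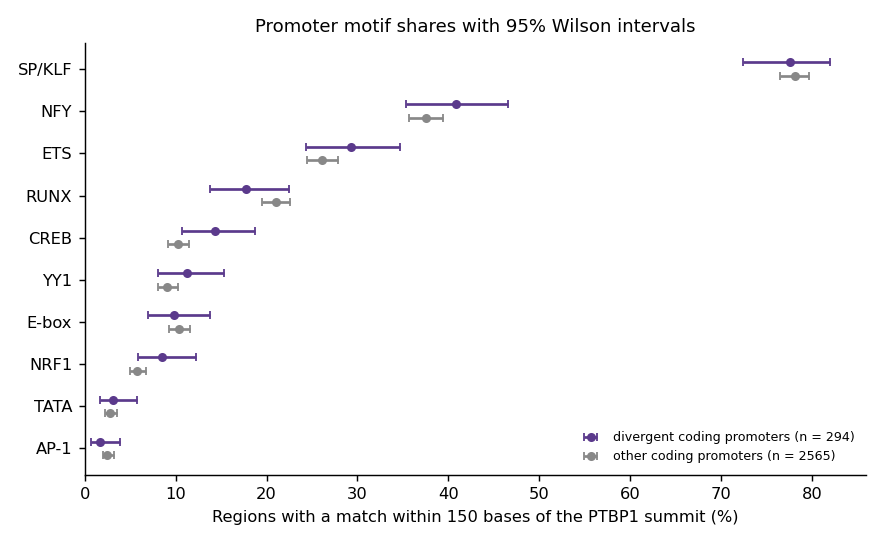
Share of regions (%, horizontal axis) with each of 10 motifs within 150 bases of the PTBP1 summit, at 294 divergent (purple) and 2565 other coding promoters (grey), with 95% Wilson intervals. Intervals of the groups overlap for each motif; SP/KLF is at 77.6% and 78.2%, and AP-1 at 1.70% and 2.50%.

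Familiar head-to-head genes were looked up next. Of 42 listed pairs, 13 were head-to-head by gene 5-prime ends, and 8 of these had a shared region, beside 35.1% of all 887 pairs. PPAT/PAICS, which encodes enzymes of purine synthesis, had a PTBP1 fold enrichment of 43.0 and a RUNX1 fold enrichment of 21.1. NPAT/ATM had 27.3 and 41.4, with both summits between TSSs that lie 406 bases apart. NPAT activates histone genes and ATM is the kinase that signals DNA double-strand breaks. SARS2/MRPS12, a mitochondrial seryl-tRNA synthetase with a mitochondrial ribosomal protein, had 28.5 and 24.1.

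PSMB1/TBP, a proteasome subunit with the TATA-binding protein, had 32.6 and 12.8 at the widest spacing of any member, 995 bases. VPS52/RPS18 had 22.1 and 23.3, SIRT3/PSMD13 had 14.5 and 13.5, and XPO5/POLH, an exportin of microRNA precursors with a polymerase that bypasses DNA lesions, had 13.95 and 12.03. PRKDC/MCM4, whose genes encode the DNA-dependent protein kinase and a subunit of the replicative helicase, had a PTBP1 peak only, with 7 bases between the TSSs. The histone pair H2BC11/H2AC11 had the lowest values of the 8, at 11.05 and 9.02. H2AC7/H2BC7, H2BC8/H2AC8, H2BC12/H2AC12 and H2BC13/H2AC13 had no peak of either list within 1000 bases of both TSSs.

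Gene groups were then counted among paired genes, of which 603 of 1710 (35.3%) belonged to a pair with a shared region. The genes named here are those of highest mean percentile over both lists in each group, except that all 3 clustered histone pairs are given. Cytosolic ribosomal protein genes stood at 7 of 11 (63.6%), with RPLP2 at fold enrichments of 36.0 for PTBP1 and 31.6 for RUNX1. RPL35 came next by mean percentile, with 20.9 and 29.3. RNA polymerase II and Mediator genes stood at 8 of 19 (42.1%), with MED8 at 29.6 and 18.05. DNA repair genes stood at 11 of 29 (37.9%), including ATM, the helicase gene RECQL4 with 31.4 and 30.8, and the recombination gene XRCC3 with 58.7 and 24.8. These shares were read against 35.3% as counts only.

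Mitochondrial ribosomal protein genes stood at 6 of 17 (35.3%), among them MRPL54 and MRPL18, and the latter had 42.4 and 43.6 in the region it shares with the chaperonin gene TCP1. Splicing factor genes stood at 6 of 18 (33.3%). HNRNPA1, which encodes a splicing repressor, had 77.3 and 41.4 in the region it shares with the heterochromatin protein gene CBX5. HNRNPUL2 came next by mean percentile, with 37.8 and 34.6. Chaperone genes stood at 5 of 15 (33.3%), proteasome subunit genes at 2 of 6 (33.3%) and aminoacyl-tRNA synthetase genes at 1 of 3.

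DNA replication genes stood at 4 of 14 (28.6%), with CDC45, a component of the replicative helicase, at 31.4 and 21.8. Oxidative phosphorylation subunit genes stood at 5 of 20 (25%), and NDUFV3, next after NDUFA11 by mean percentile, had 19.8 and 17.3. Zinc finger genes stood at 8 of 34 (23.5%), with ZNF558 at 40.7 and 36.1. Clustered histone genes stood at 6 of 27 (22.2%), from 3 pairs. H2AC25/H2BC26 had 37.2 and 18.8 and H2BC21/H2AC20 had 6.64 and 6.19, the latter at percentiles 2.59 and 0.77. The only paired glycolysis gene, PGAM1, had 21.5 and 13.5, and 0 of 34 stem cell and myeloid transcription factor genes were in a head-to-head pair, against 1710 of all 20033 protein-coding genes (8.54%).

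At the limits of the selection, PSMB1/TBP was the most widely spaced member at 995 bases, and the next wider pair with a shared region, TXNDC12/BTF3L4, was spaced by 1008 bases with fold enrichments of 12.2 and 15.0. The member farthest from a TSS of its pair was at CLCN2/POLR2H, 905 bases away, with 16.9 and 18.05. The nearest region outside the limit lay 1104 bases from a TSS of MRPL36/NDUFS6, with 26.2 and 12.03. This pair also has a member region, with 14.5 and 9.77. The lowest −log10 q-values among members were 10.4 for PTBP1, at SBF2/ADM, and 7.25 for RUNX1, at SEZ6L2/ASPHD1.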

How the data were processed

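MOLM-13 chromatin was profiled in 13 libraries. The authors mapped reads to hg38 by Bowtie2, dropped poorly mapped and duplicate pairs, and ran MACS3 on fragments at a q-value of 1e-07 (bedtools 2.30.0 is also named in the submitters' processing notes). Whether replicates were pooled is not stated. One deposited list holds 9370 PTBP1 peaks and the other 7688 RUNX1 peaks, with peak positions, the fold enrichment (a ratio) and the −log10 p-value and −log10 q-value as deposited by the authors. Libraries themselves, and IgG signal, were not analysed here. Fragment pileup and background at each summit were solved from these values (largest difference 0.00134), and total depth is unknown.

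Shares were compared with two-sided Fisher's exact tests and paired outcomes with exact sign tests, with Benjamini-Hochberg adjustment over 6 region comparisons and over 10 motifs. A summit is that of the strongest peak in the region. Neighbouring regions are not independent, and intervals (95% Wilson) cover counting error only. Regions named were the 8 highest by mean percentile, the 3 with the largest excess in each direction, listed pairs, those at the limits, and the highest of each of 14 gene lists. Alternatives covered the q-value, pair spacing, TSS definition, region rule and width, comparator and motif windows. Members and lists were chosen with earlier results of these data known. Sequence stretches with more than 30 UTR bases were not printed. On simulated data with random sequence, a planted PTBP1 difference and a planted motif were both called in 20 of 20 simulated experiments. Without them, 0 of 20 gave a call. Both planted differences were larger than those seen here. Only the tests of fold enrichment, RUNX matches at RUNX1 summits and pyrimidine runs were checked. Power for smaller differences, and the behaviour of the other tests, is therefore unknown. Tools were scipy 1.17.1, pandas 2.3.3, numpy 2.4.6, pysam 0.24.0 and matplotlib 3.10.9 under Python 3.11.15.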

Additional observations from a re-analysis of the deposited data

How the results depend on the processing

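Of 222 values under alternatives, 200 kept both direction and side of the threshold or, for counts, stayed of similar size. Taking regions within 1000 bases of either TSS repeated the main value of every result except the spacing difference. Those repeats are among the 200 and add no separate check. The PTBP1 fold enrichment difference fell short of the threshold with pairs at most 500 bases apart (6.39 points), summits at most 200 bases apart (6.05) and regions 500 to 1500 bases wide (8.73). The share of PTBP1 summits nearer the midpoint passed it with canonical transcript starts (56.3%). The following changed sign without passing a test under any setting. RUNX1 fold enrichment became -1.46 points with pairs at most 500 bases apart and -3.38 with summits at most 200 bases apart. The RUNX share at PTBP1 summits became 0.94 with canonical starts and 0.56 with regions 500 to 1500 bases wide. Pyrimidine runs became 0.38 with both TSS bases inside the region, 0.78 with summits at most 200 bases apart and 0.068 against promoters without any head-to-head gene. The RUNX share at summits over flanks became -0.83 with summits at most 200 bases apart, and the excess of PTBP1 summits between the TSSs became -1.09 with canonical starts. Among promoter motifs, RUNX became 2.70 with canonical starts and NFY -0.26 with regions 500 to 1500 bases wide. NRF1 became -0.38 and TATA -0.62 round the RUNX1 summit. Within 50 bases, SP/KLF became 2.31, E-box 1.03 and TATA -0.60, and E-box became 0.11 with both TSS bases inside and 0.0024 with canonical starts. The cause of these changes was not tested. The number of members ranged from 240 to 366, and the spacing difference from -31.7 to -14.7 points. Restricting to the usual background, and the comparisons of percentiles and of TSS coverage, were chosen after seeing the data. No paired analysis was possible because each target has 1 list without replicates, and for the same reason no replicate could be left out.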
